A study of Mus musculus with 6 samples.

Results

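The 35 genes described here carry glucose from the cell surface to pyruvate and decide where pyruvate goes: glucose transporters, the glycolytic enzymes, lactate dehydrogenases and lactate transporters, the pyruvate dehydrogenase complex with its kinases, and the mitochondrial pyruvate carrier. They were chosen by symbol, and all 35 were found among the 24421 genes of the deposited table. All 35 were among the 13411 genes kept for testing. RNA came from sorted Lin-CD117+ bone marrow cells, the fraction without lineage antigens that carries the KIT receptor and holds stem and progenitor cells, of female CByB6F1 mice aged 2 to 5 months. One group of mice was untreated (pools 1, 2 and 3) and the other was given ruxolitinib (RUX, pools 4, 5 and 6), a drug that blocks JAK1 and JAK2, kinases that pass on cytokine signals. Each pool mixed cells of 2 to 3 mice of its group, so a pool is the replicate and single mice cannot be seen. Neither dose nor length of treatment is given in the sources used here. The comparison between the groups addresses which genes of these progenitors differ in expression under the drug.

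Glycolysis splits glucose into pyruvate in the cytosol. Lactate dehydrogenase turns pyruvate into lactate, which leaves the cell through monocarboxylate transporters, whereas the pyruvate carrier and the pyruvate dehydrogenase complex bring pyruvate into the citric acid cycle. Pyruvate dehydrogenase kinases switch that complex off, and quiescent hematopoietic stem cells are known for a reliance on glycolysis in the low oxygen of the marrow. Many of the genes are textbook targets of the hypoxia-inducible factors, which bind DNA at a core of ACGTG, and of MYC, which binds the E-box CACGTG.

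Promoter sequences from RefSeq (GRCm38.p6, the mm10 assembly) were at hand for 34 of the 35 genes, as 52 windows of 300 bases that start 250 bases before an annotated transcription start. ACGTG, on either strand, was present in 23 of the 52 windows (44.2%) and in 19.6% of all 32851 windows of the same length. CACGTG, a palindrome that always contains ACGTG, was present in 6 of the 52 windows (11.5%) and in 7.15% of all windows. The median GC content was 61.2% for the members' windows and 52.7% for all windows. A match describes the letters only. To show these letters in place, the stretches below hold the matches upstream of the start in 6 genes of uptake, lower glycolysis, lactate production, lactate export and pyruvate dehydrogenase inhibition, chosen with the matches known. Ldha and Pkm each had a further window without a match. For Pkm that was the window at the more upstream start, and its stretch below comes from the more downstream one. The stretches are read 5′ to 3′ on the gene's strand with the matches in capitals.
Slc2a1, chr4:119108694-119108728, plus strand: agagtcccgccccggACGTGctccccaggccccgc
Ldha, chr7:46845644-46845789, plus strand: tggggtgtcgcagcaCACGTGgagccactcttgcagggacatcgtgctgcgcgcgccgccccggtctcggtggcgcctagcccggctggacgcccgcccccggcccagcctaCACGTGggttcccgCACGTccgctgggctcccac
Pgk1, chrX:106186935-106186988, plus strand: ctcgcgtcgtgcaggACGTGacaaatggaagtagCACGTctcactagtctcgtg
Pkm, chr9:59657137-59657171, plus strand: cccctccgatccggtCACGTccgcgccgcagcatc
Slc16a1, chr3:104638449-104638484, plus strand: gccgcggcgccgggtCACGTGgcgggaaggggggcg
Pdk3, chrX:93832184-93832218, minus strand: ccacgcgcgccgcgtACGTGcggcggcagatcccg
Ldha held the most matches of any member window, 5 on the 2 strands, of which 4 came from 2 E-boxes.

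Counted read pairs totalled 27354768 to 48747137 per pool, with the untreated pools the shallower ones, and 3 counts corresponded to 0.0615 to 0.11 CPM (counts relative to library size). The 35 genes took 0.707 to 0.837% of all counts. Kit, the gene of the sort antigen CD117, was present in every pool at 196 to 471 CPM. A principal component analysis of log2(CPM + 1) over all tested genes set untreated pool 3 (24.1) and RUX pool 4 (19.5) at one end of the first component and the other 4 pools (−16.5 to −3.04) at the other, with 39.7% of the variance. These pools had 243 and 227 CPM summed over 9 eosinophil markers, against 51.0 to 106 CPM in the others. Most of each sum was Prg2, at 214 and 207 CPM in these pools and 35.7 to 80.7 CPM in the others. Epx, Prg3, Ear1, Ear6 and Il5ra were also highest in them. Siglecf (10.4 to 14.0 CPM over all pools) and Ear2 (highest in untreated pool 2) did not follow. Results that rest on untreated pool 3 and RUX pool 4 are also given without them. In such bulk pools, more cells of a type and more RNA per cell cannot be told apart.

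The counting set 2 kinds of limit on single members. In the deposited annotation 1649 of the 1776 exon bases of Eno1 (chromosome 4, 150237197 to 150248873, mm10) also lie in exons listed under the symbol Eno1b, and the recorded command counts no pair that falls on more than 1 gene. Eno1, the enolase most tissues use, accordingly held only 26, 25 and 58 counts in the untreated and 37, 43 and 49 counts in the RUX pools, and Eno1b held 1300 to 2690. These counts do not measure the level of enolase mRNA. Copies elsewhere in the genome are the other limit, since pairs that map to several places were left out by the tool's defaults. Of all 50-base stretches in the longest coding transcript, 82.5% for Gapdh, 68.0% for Pgk1, 41.5% for Pgam1, 30.5% for Pkm, 30.3% for Pdhb, 27.0% for Ldhb, 23.2% for Mpc1, 19.6% for Gpi1, 16.6% for Ldha and 13.5% for Aldoa recur exactly in transcripts of other loci in GENCODE M21. For stretches of 100 bases the shares were 78.0% for Gapdh, 67.0% for Pgk1, 39.7% for Pgam1 and 18.8% for Mpc1, and at most 10.5% for the other genes just named. The level of these genes may therefore be understated relative to genes without copies, such as the hexokinases, at 0%. Read length is also not given.

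Levels of different genes were compared as TPM, which are counts per exon base scaled to the same total in each pool, over the exon lengths in the deposited table. Ldha, which makes lactate from pyruvate, had the highest counted level of the 35 genes at a mean of 1502 TPM over the 6 pools, and it was above Gapdh (1134 TPM), the glyceraldehyde phosphate dehydrogenase, in 6 of 6 pools by 1.09 to 1.59 times. This order is uncertain, because 78.0% of the 100-base stretches of Gapdh and 1.28% of those of Ldha recur at other loci and pairs from them may have gone uncounted. Tpi1 (triosephosphate isomerase, 651 TPM), Aldoa (aldolase, 605 TPM), Pkm (pyruvate kinase, 476 TPM) and Gpi1 (glucose phosphate isomerase, 299 TPM) followed. The ranges of Tpi1 and Aldoa overlapped over pools, as did those of Aldoa and Pkm, although the order within a pool was the same in 6 of 6. Below Gpi1, from Mpc2 (281 TPM) down to Pfkl (81.6 TPM), neighbours in the order overlapped throughout. Among the low members were the transporter genes Slc2a3 (21.1 TPM) and Slc2a1 (12.2 TPM), Hk2 (7.68 TPM), the PFKFB genes (1.39 to 6.45 TPM), Slc16a3 (4.79 TPM) and Aldoc (2.76 TPM).

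**Figure D1:**
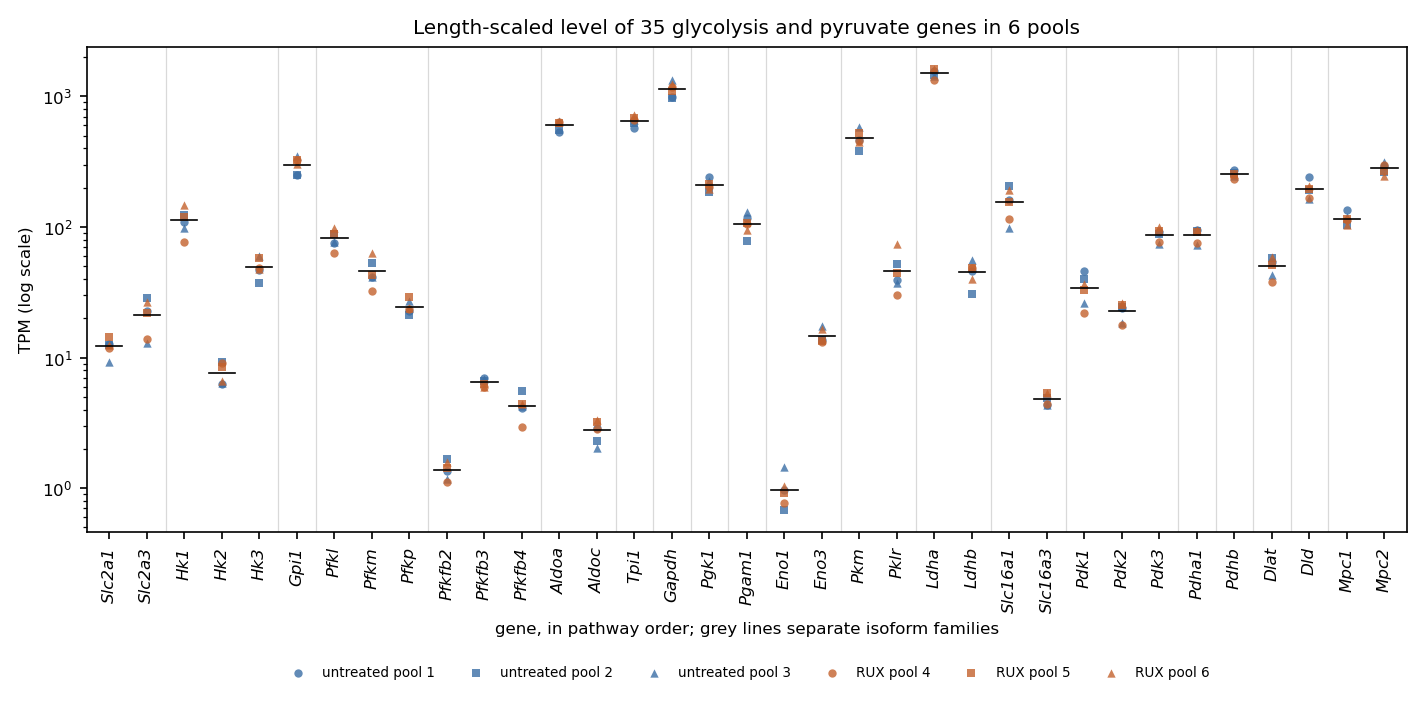
TPM on a log axis for each of the 35 genes in pathway order; each point is a pool (blue untreated, orange RUX) and each black line the mean of the 6 pools. Levels run from about 1 TPM for Eno1 to 1502 TPM for Ldha, and the spread over pools of a gene is small beside the distance between most isoforms.

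In 9 of the 11 families the TPM range of the leading member lay wholly above that of the next. The exceptions were the glucose transporters and the phosphofructokinases. The 9 include Mpc1 and Mpc2, which are partner subunits rather than isoforms, and the enolases, which are limited by the counting of Eno1. Hk1, the hexokinase of most tissues, held 57.2 to 73.1% of hexokinase TPM, Hk3, the hexokinase of myeloid cells, 21.7 to 36.1%, and Hk2, the inducible form, 3.29 to 6.77%. Pkm held 85.8 to 93.9% of pyruvate kinase TPM and Pklr, the liver and red cell form, 6.05 to 14.2%. Aldoa made up 99.5 to 99.7% of the aldolases. One isoform also dominated at the lactate steps. Ldha held 96.2 to 97.9% of lactate dehydrogenase TPM, with Ldhb, whose product favours the return of lactate to pyruvate, at 2.07 to 3.76%. Slc16a1, which encodes the lactate transporter MCT1, held 95.8 to 97.7% and Slc16a3, which encodes MCT4, the remaining 2.34 to 4.22% of their summed TPM. Slc16a7, a related gene outside the list, had a mean of 4.59 TPM, beside 4.79 TPM for Slc16a3, and is not in these shares.

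Other families were mixed. Pfkl, the liver-type phosphofructokinase, held 52.9 to 55.2%, Pfkm, the muscle type, 26.8 to 34.2%, and Pfkp, the platelet type, 12.9 to 19.8%. Their order within a pool was the same in 6 of 6 pools. Slc2a3, a high-affinity glucose transporter gene, held 54.0 to 69.3% of the 2 transporters and was above Slc2a1 in 6 of 6 pools, though their ranges overlapped. Pfkfb3, whose product makes the sugar bisphosphate that activates phosphofructokinase, held 47.8 to 59.4%, Pfkfb4 29.5 to 40.04% and Pfkfb2 9.53 to 13.2%. Pfkfb1, outside the list, had a mean of 2.00 TPM, above Pfkfb2 at 1.39 TPM, and is not in these shares. Mpc2 was at 2.16 to 2.65 times the TPM of Mpc1, its partner in the pyruvate carrier; 11.7% of the exon bases of Mpc1 lie in another gene. Eno3, the muscle enolase, held 92.2 to 95.2% of the enolase TPM, a share that the uncounted Eno1 pairs make uninterpretable.

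Among the pyruvate dehydrogenase kinases, Pdk3 held 56.5 to 65.8% of TPM, Pdk1 18.9 to 28.4% and Pdk2 15.02 to 16.6%. That order depended on the length scale: by counts Pdk3 was above Pdk1 in 4 of 6 pools, since the exons of Pdk1 span 5185 bases and those of Pdk3 2000. In the complex that these kinases inhibit, Pdhb, the beta subunit of the first enzyme, had 2.66 to 3.37 times the TPM of Pdha1, the alpha subunit. Dld, the shared dihydrolipoamide dehydrogenase, had 3.33 to 4.45 times that of Dlat, the acetyltransferase core. Both differences held in 6 of 6 pools; 21.8% of the exon bases of Pdha1 lie in exons of Map3k15 on the other strand, where pairs were not counted.

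**Figure D2:**
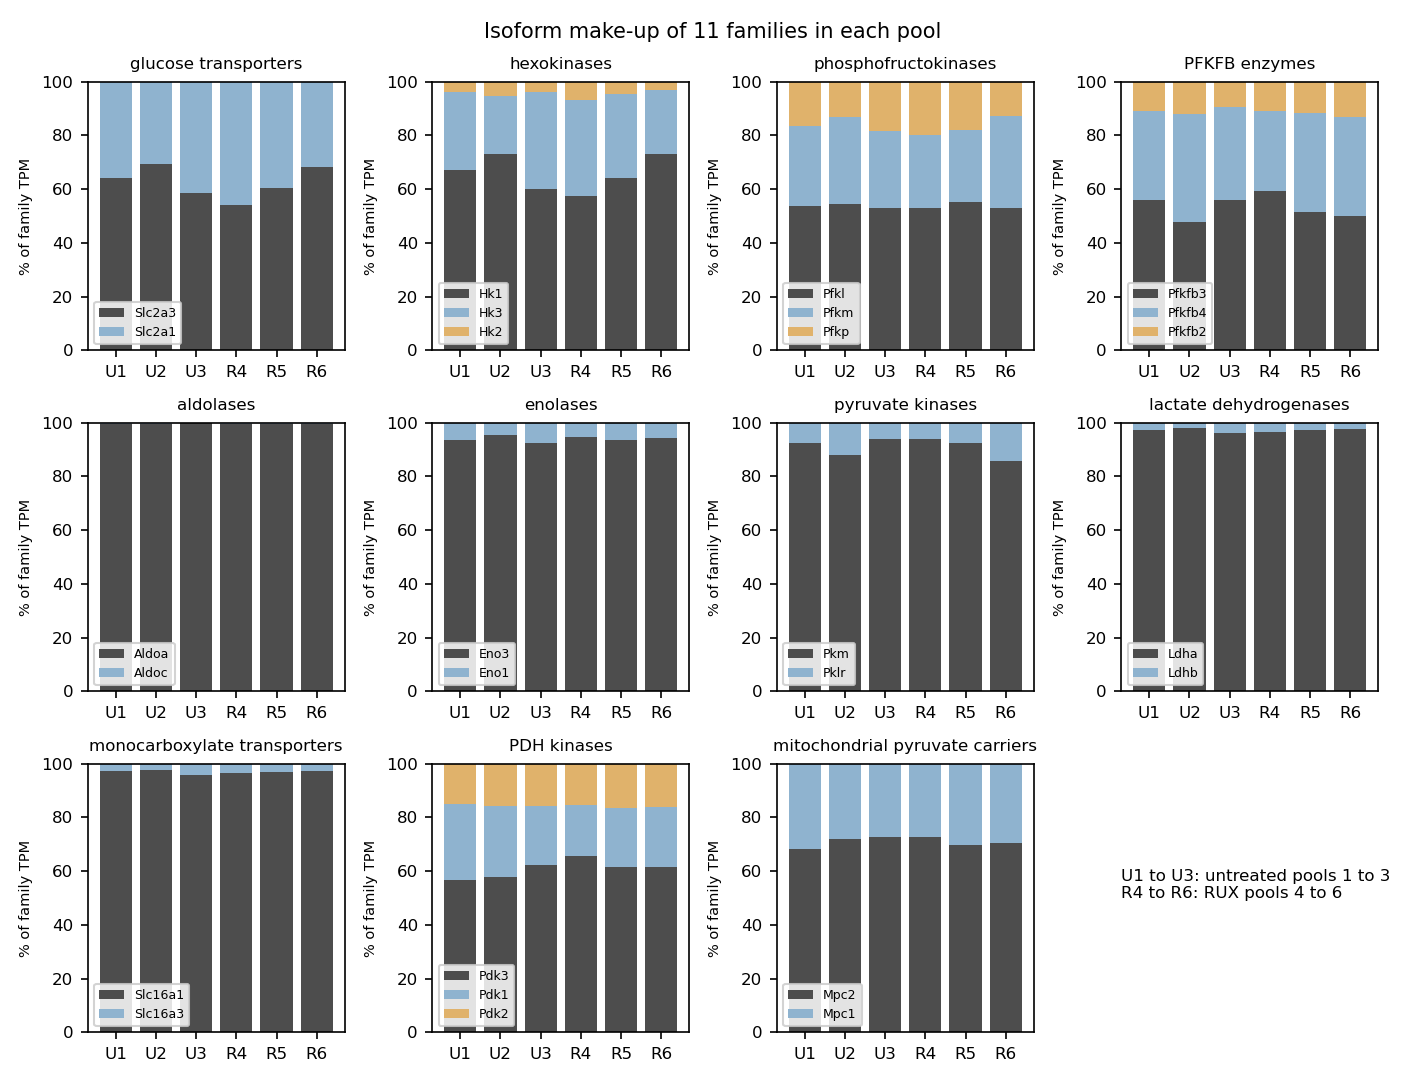
Stacked bars of each isoform's share of the summed TPM of its family's listed members (percent, vertical axis) in untreated pools 1 to 3 (U1 to U3) and RUX pools 4 to 6 (R4 to R6). Aldoa, Ldha and Slc16a1 fill at least 95.8% of their bars in every pool, whereas phosphofructokinases and PFKFB enzymes are mixed; the enolase panel is limited by the counting of Eno1.

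The make-up of the families was compared between the groups by the share of the leading member. Differences in the mean share ran from −3.16 percentage points for Slc2a3 to 4.04 points for Pdk3. Pdk3 held 58.9 ± 3.02% in untreated and 62.9 ± 2.46% in RUX pools (mean ± SD, n = 3 each), with a two-sided exact permutation p of 0.3. Hk1 held 66.7 ± 6.49% and 64.8 ± 7.94%, and Pfkl 53.7% in each group. No family passed: the exact p was 0.3 to 1 over the 11 families and 1 in each after Benjamini-Hochberg adjustment, and 0.1 is the smallest p this design allows. The groups overlapped for every leading member.

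None of the 35 genes was called between the groups. By edgeR's quasi-likelihood test with Benjamini-Hochberg adjustment, 0 of the 35 genes had an adjusted p under 0.05, where 0% of all 13411 tested genes did. At an unadjusted p under 0.05 there were 0 members, higher or lower, against 1.89% of all tested genes (0.85% higher and 1.04% lower). DESeq2 and limma-voom also gave 0 members by either measure. The log2 fold changes (RUX minus untreated) ran from −0.28 to 0.39, with 20 positive and 15 negative. Their median was 0.02, beside −0.0036 over all tested genes. For 34 of 35 members, all but Eno1, the 95% interval of the fold excluded a 2-fold change either way, and for 29 it excluded a 1.5-fold change. The other 5 that reached past 1.5-fold were Hk2, Pfkfb4, Aldoc, Pklr and Pdk1. RUX values lay entirely above untreated values for 2 members, Aldoc and Slc16a3, and entirely below for 0. That is 2 of 35 members without overlap, where 6.24% of all tested genes had none (2.99% higher and 3.25% lower under RUX).

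**Figure D3:**
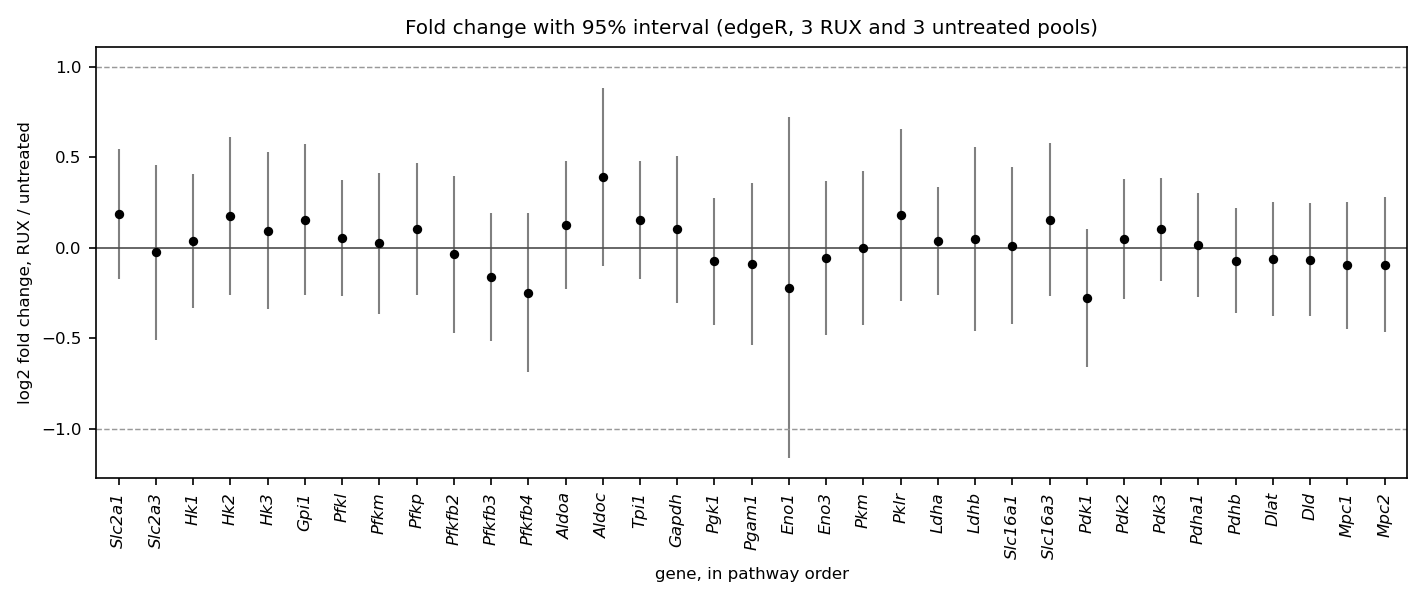
Log2 fold change of RUX over untreated pools for each gene in pathway order, with its 95% interval (edgeR, n = 3 pools per group); dashed lines mark a 2-fold change. Every interval crosses 0, and only that of Eno1 crosses a dashed line.

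For glucose uptake, Slc2a1 measured 17.6, 17.2 and 14.5 CPM in untreated pools 1, 2 and 3 and 19.2, 19.9 and 16.8 CPM in RUX pools 4, 5 and 6. Its log2 fold change was 0.19 ± 0.17 (SE), and the groups overlapped through RUX pool 6. Slc2a3 measured 48.4, 59.7 and 31.6 CPM in the untreated and 34.7, 47.1 and 55.3 CPM in the RUX pools. Its lowest values were in untreated pool 3 and RUX pool 4, and the log2 fold change was −0.03 ± 0.22 (SE).

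In upper glycolysis, Hk1 measured 262, 298 and 273 CPM in the untreated and 218, 288 and 348 CPM in the RUX pools, so that the RUX pools spanned the untreated ones. Hk2 measured 18.6, 26.9 and 21.8 CPM and 31.6, 25.2 and 19.2 CPM (log2 fold change 0.17 ± 0.20 SE). Gpi1, which converts glucose phosphate to fructose phosphate, measured 387, 385 and 619 CPM in untreated and 589, 504 and 455 CPM in RUX pools. Untreated pool 3 was the highest of all 6 for this gene, and the other 2 untreated pools the lowest. The log2 fold change of Gpi1 was 0.15 ± 0.19 (SE). Without untreated pool 3 it was 0.42 and the groups separated, as they did for 19.5% of all tested genes. Over the 15 alternative fits it ran from 0.04 to 0.42.

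Pfkl, for the committed step, measured 149, 174 and 176 CPM in the untreated and 148, 178 and 191 CPM in the RUX pools (log2 fold change 0.05 ± 0.15 SE). Pfkfb3 measured 19.9, 18.5 and 22.4 CPM and 19.9, 17.8 and 16.6 CPM (log2 fold change −0.16 ± 0.16 SE). Pfkfb4 measured 7.46, 9.85 and 8.82 CPM and 6.28, 8.04 and 7.70 CPM (log2 fold change −0.25 ± 0.20 SE) with an edgeR adjusted p of 1.00. Pfkfb3 and Pfkfb4 overlapped between groups and kept a negative sign in all 15 alternative fits.

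Aldoc, a minor aldolase best known from brain, had the smallest unadjusted p of the members and was counted at 124, 138 and 130 pairs in the untreated and 222, 244 and 250 pairs in the RUX pools. Relative to depth these were 4.43, 3.53 and 3.57 CPM and 5.14, 5.00 and 4.96 CPM, without overlap. The log2 fold change was 0.39 ± 0.23 (SE), with an unadjusted p of 0.110 and an adjusted p of 1.00 in edgeR. Aldoc (chromosome 11, 78323073 to 78327778, plus strand) supplied only 0.312 to 0.532% of aldolase TPM, and as a share of the family its groups overlapped. Aldoa, the main form, measured 526, 536 and 725 CPM and 728, 620 and 603 CPM (log2 fold change 0.13 ± 0.16 SE).

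In lower glycolysis, Tpi1 measured 491, 528 and 645 CPM in untreated and 663, 586 and 603 CPM in RUX pools (log2 fold change 0.15 ± 0.15 SE). Gapdh measured 788, 770 and 1219 CPM and 1117, 889 and 974 CPM, with the highest value in an untreated pool. Both had 2 untreated pools below all RUX pools and untreated pool 3 among or above them. Pgk1, whose enzyme makes the first ATP of the pathway, measured 234, 180 and 251 CPM and 235, 211 and 185 CPM, and Pgam1, the phosphoglycerate mutase, 116, 75.4 and 146 CPM and 121, 105 and 90.1 CPM. Eno3 measured 11.8, 11.6 and 17.1 CPM and 13.3, 11.6 and 13.9 CPM. The log2 fold changes of these 3 genes were −0.08, −0.09 and −0.06, within their SE of 0.16 to 0.21.

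At the last step of glycolysis, Pkm measured 647, 523 and 930 CPM in untreated and 751, 739 and 603 CPM in RUX pools (log2 fold change −0.0040 ± 0.20 SE), and its sign changed in 9 of 15 alternative fits. Pklr measured 58.9, 78.0 and 64.6 CPM and 53.5, 67.2 and 108 CPM, with its highest value in RUX pool 6, and had a log2 fold change of 0.18 ± 0.22 (SE). That pool also had the highest summed level of 11 erythroid markers, 8520 CPM against 5252 to 7071 CPM in the others. The part of erythroid content in the level of Pklr was not tested.

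Ldha was nearly constant. It measured 1613, 1488 and 1710 CPM in the untreated and 1620, 1680 and 1633 CPM in the RUX pools, with a coefficient of variation of 4.70% over the 6 pools and a log2 fold change of 0.04 ± 0.14 (SE; 95% interval of the fold 0.833 to 1.26). Slc16a1 measured 380, 482 and 268 CPM and 323, 374 and 442 CPM, again lowest in untreated pool 3 and RUX pool 4. Slc16a3 measured 6.04, 6.73 and 6.87 CPM and 7.21, 7.44 and 7.199 CPM, without overlap but by a small margin, and its log2 fold change was 0.15 ± 0.20 (SE; edgeR adjusted p of 1.00).

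At the entry to the citric acid cycle, Pdk1 had the second smallest unadjusted p of the members. It measured 127, 109 and 83.3 CPM in untreated and 72.0, 92.6 and 98.9 CPM in RUX pools (chromosome 2, 71873224 to 71903858). Untreated pools 1 and 2 were above all RUX pools and untreated pool 3 below 2 of them. The log2 fold change was −0.28 ± 0.18 (SE; unadjusted p of 0.141 and adjusted p of 1.00 in edgeR). Pdk3 measured 97.4, 93.1 and 90.6 CPM and 96.7, 101 and 104 CPM (log2 fold change 0.10 ± 0.13 SE), with an overlap of the groups by less than 1 CPM.

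The subunits of the complex had coefficients of variation of 4.27 to 9.49% over the 6 pools. Pdha1 measured 141, 138 and 124 CPM in untreated and 133, 137 and 137 CPM in RUX pools, the smallest variation of the 35 members. Pdhb measured 218, 203 and 225 CPM and 217, 202 and 196 CPM, Dlat 117, 124 and 106 CPM and 97.0, 110 and 125 CPM, and Dld 293, 233 and 231 CPM and 240, 238 and 245 CPM. Mpc2 measured 134, 120 and 166 CPM and 160, 124 and 110 CPM. These 5 genes had log2 fold changes of −0.09 to 0.01 with SE of 0.13 to 0.17, and none separated the groups. The 8 members not given pool by pool, Hk3, Pfkm, Pfkp, Pfkfb2, Eno1, Ldhb, Pdk2 and Mpc1, had log2 fold changes of −0.22 (Eno1) to 0.10 (Pfkp) and overlapped between the groups.

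The 35 genes had a median coefficient of variation of 15.2% over the 6 pools, beside 15.97% for all tested genes. Among genes of at least 10 CPM, which include 30 of the members, the medians were 15.22% for members and 12.98% for the 8778 tested genes. In 9 members untreated pool 3 and RUX pool 4 both exceeded the other 4 pools, namely Gpi1, Aldoa, Tpi1, Gapdh, Pgk1, Pgam1, Pkm, Ldhb and Mpc2 (25.7% of members, and 15.3% of all tested genes). In 7 members, Slc2a3, Pfkfb2, Slc16a1, Pdk1, Pdk2, Pdha1 and Dlat, both lay below the other 4 (20.0% of members and 16.6% of all tested genes). The 2 pools were singled out after their values had been seen. Their mean was 1.49 times that of the others for Ldhb, 1.40 for Gpi1, 1.39 for Pgam1, 1.37 for Gapdh and 1.34 for Pkm, and 0.630 times for Slc2a3, 0.704 for Slc16a1 and 0.726 for Pdk1. Hk3, the myeloid hexokinase, measured 119 CPM in untreated pool 3, 99.5 in RUX pool 4 and 102 in RUX pool 5, and 64.4 to 81.7 CPM elsewhere.

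Marker levels of other cell types differed between pools as well, and not all in the same way. The 15 neutrophil lineage markers were divided by the stage of granule formation after their values had been seen. The 4 early granule genes Mpo, Elane, Prtn3 and Ctsg summed to 7472, 4751 and 13168 CPM in untreated pools 1, 2 and 3 and to 10040, 10107 and 8406 CPM in RUX pools 4, 5 and 6. They were highest in the 3 pools in which Hk3 was highest. The 9 late genes, among them S100a8, S100a9, Ngp and Ltf, followed other pools, with sums of 169, 2271 and 2393 CPM in the untreated and 1443, 942 and 373 CPM in the RUX pools. Untreated pool 2 was high in these late genes and had the lowest sum of the early ones. Of the 9 members high in untreated pool 3 and RUX pool 4, Gpi1, Gapdh, Pgk1, Pgam1, Pkm and Ldhb were lowest in untreated pool 2. Aldoa and Tpi1 were lowest in untreated pool 1 and Mpc2 in RUX pool 6. Of the 7 low members, Slc2a3, Pfkfb2 and Slc16a1 were highest in untreated pool 2. Pdk1 and Pdha1 were highest in untreated pool 1, and Pdk2 and Dlat in RUX pool 6. The late genes had log2 fold changes of −1.07 to −0.70 and the early ones of 0.08 to 0.35, and the median over all 15 was −0.78; none was called (edgeR adjusted p 1.00 for each). The 10 monocyte and dendritic markers summed to 1542 CPM in untreated pool 3 and to 721 to 1031 CPM elsewhere. Sort and progenitor genes (6 markers) went the other way, with 830 CPM in untreated pool 3, 1088 in RUX pool 4 and 1243 to 1383 CPM in the others, and erythroid markers were lowest in the same 2 pools, at 5813 and 5252 CPM. Muscle markers, which could carry Eno3 and Pfkm, summed to at most 0.964 CPM in every pool. The part of these cell types in the members' levels was not tested.

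**Figure D4:**
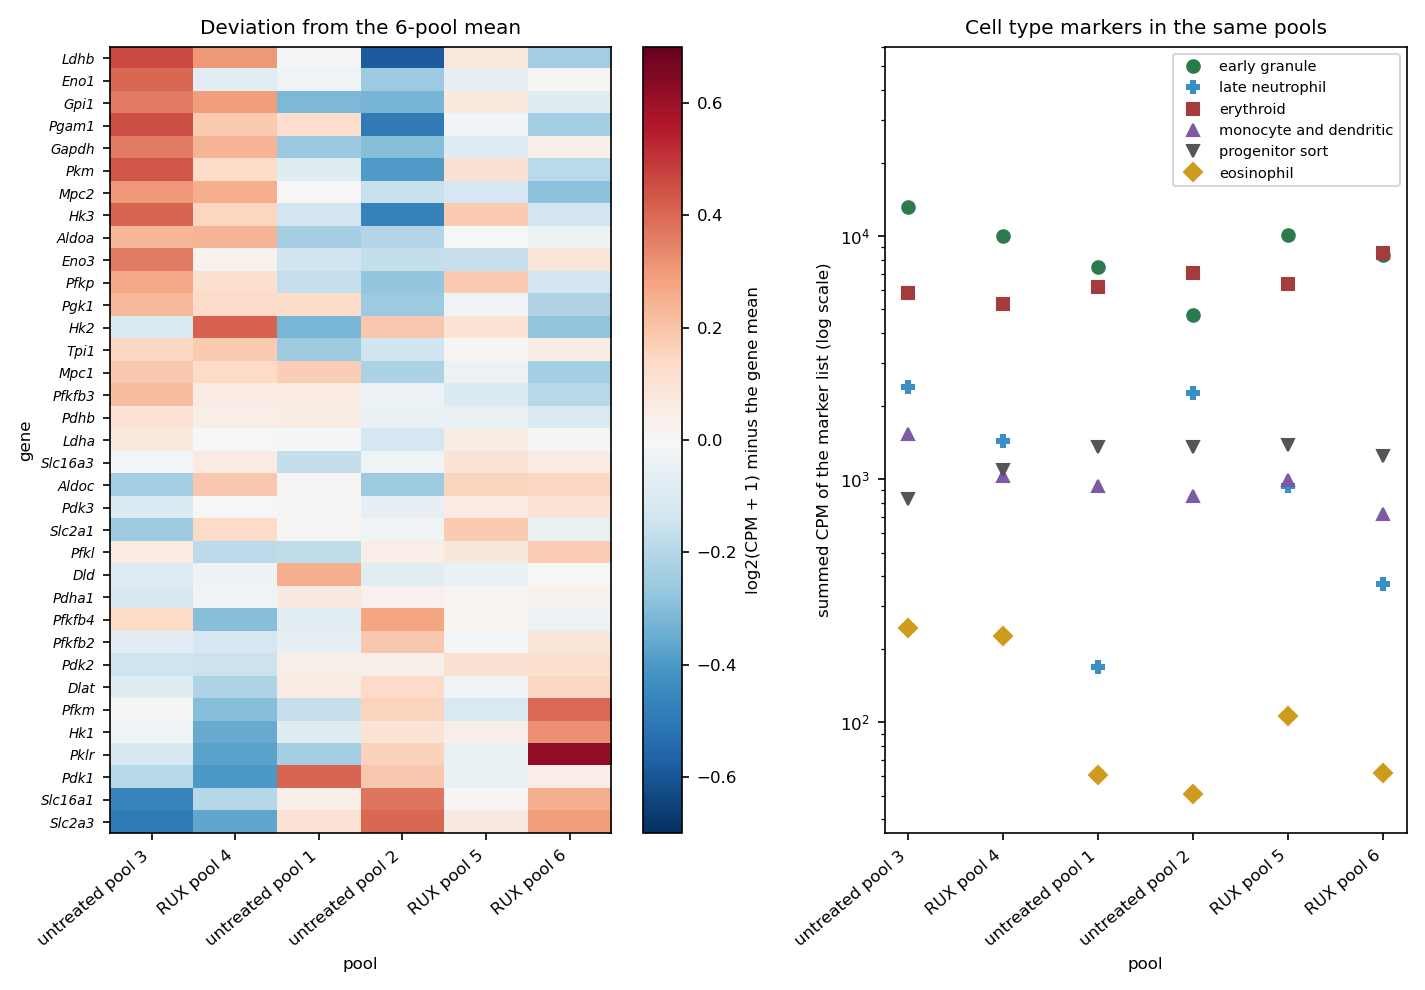
Left, deviation of each gene's log2(CPM + 1) from its mean over the 6 pools (color scale), genes ordered by the ratio of untreated pool 3 and RUX pool 4 to the other pools; right, summed CPM of 6 marker lists (neutrophil markers as an early granule and a late list) on a log axis in the same order of pools. The eosinophil sum, most of it Prg2, is highest in untreated pool 3 and RUX pool 4, as are 9 members. Late neutrophil markers are highest in untreated pools 3 and 2, and early granule markers are lowest in untreated pool 2.

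With untreated pool 3 left out, 11 members separated the groups (19.5% of all tested genes did so), and Hk3, Pdk1, Gapdh and Gpi1 had an unadjusted p under 0.05, with no adjusted p under 0.05. Over all 13755 genes tested in that setting 3.96% had an unadjusted p under 0.05. Their log2 fold changes were then 0.37, −0.43, 0.35 and 0.42. With untreated pool 3 and RUX pool 4 both left out, 15 members separated the groups, where 32.4% of all tested genes did, and 1 member, Gpi1, had an unadjusted p under 0.05, where 3.73% of all tested genes did. Again 0 members passed after adjustment in edgeR.

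The glucose importer Slc2a3 and the lactate transporter Slc16a1 varied side by side. Slc16a1 had 7.02 to 8.31 times the TPM of Slc2a3 in the 6 pools, while each gene alone varied by 1.89 and 1.80 times in CPM from its lowest to its highest pool. The ratio of Slc16a1 to Slc2a1, in comparison, ran from 9.74 to 16.3. Both Slc2a3 and Slc16a1 were lowest in untreated pool 3 and RUX pool 4, as were 16.6% of all tested genes. The ratio of Pklr to Pfkm also varied less than either gene. It ran from 0.913 to 1.16, while these genes varied by 2.01 and 1.63 times in CPM. The ratio of Tpi1 to Aldoa ran from 1.01 to 1.14, while these genes varied by 1.35 and 1.38 times in CPM. A narrow ratio was therefore not particular to the transporter genes. All these pairs were chosen after their values had been seen, and the share of gene pairs that vary as little was not counted.

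Neighbouring pathways also gave no call. Of 39 further glycolysis and pyruvate genes, all in the table, 28 were tested, 0 passed in either direction, and the log2 fold changes (16 above 0 and 12 below) had a median of 0.04. Slc2a10, a minor sugar transporter, measured 1.71, 1.56 and 1.18 CPM in the untreated and 1.76, 2.60 and 2.60 CPM in the RUX pools, without overlap but by a small margin (log2 fold change 0.65 ± 0.33 SE, edgeR adjusted p 1.00). G6pc3, a glucose phosphatase, had 0.22 ± 0.14 (SE) and Pgam2, the muscle mutase at 0.82 to 1.49 CPM, 0.49 ± 0.37 (SE). Slc2a10 and Pgam2 were the 2 of the 28 tested genes without overlap, where 6.24% of all tested genes had none. Among 10 pentose phosphate genes 6 were positive and 4 negative (median 0.06), with Rpia, the ribose phosphate isomerase, at 0.51 ± 0.31 (SE), Prps1 at −0.17 and Rpe at −0.15. The 20 citric acid cycle genes had a median of −0.02, with 9 positive and 11 negative, and the nearest to the threshold were Fh1 (−0.17), Sdha (0.14) and Sdhd (−0.13).

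Of 24 hypoxia and MYC regulators and targets, 21 were tested, 9 were positive and 12 negative (median −0.02), and 0 passed. Myc was the 1 gene of these 21 without overlap, where 6.24% of all tested genes had none. It measured 353 to 404 CPM in untreated and 424 to 451 CPM in RUX pools (log2 fold change 0.19 ± 0.14 SE, unadjusted p of 0.188 in edgeR). Myc is named after its values were seen. Bnip3, a mitophagy receptor gene induced by low oxygen, measured 64.6, 38.7 and 50.3 CPM in untreated and 45.6, 38.3 and 34.1 CPM in RUX pools (log2 fold change −0.38 ± 0.19 SE, edgeR adjusted p 1.00). Hif1a, the oxygen-regulated subunit of the hypoxia-inducible factor, measured 83.7, 76.0 and 58.4 CPM and 53.7, 66.1 and 63.9 CPM (log2 fold change −0.25 ± 0.16 SE), and Bnip3l had −0.22 ± 0.15 (SE).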

How the data were processed

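RNA of 6 pools of sorted cells was made into libraries with the SMART-Seq mRNA LP kit, per the labels' protocols. Alignment was with STAR to mm10, per the submitters' processing notes. The authors counted read pairs over the exons of each gene with featureCounts 2.0.3 and deposited the raw count, per the file headers; the command sets no strand, multi-mapping or multi-overlap option. The exon length (in bases), another deposited column, gave TPM over all genes of the table. Pools are compared in CPM, and genes in TPM.

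Low genes were removed by the default filterByExpr of edgeR 4.0.16 (R 4.3.3), and libraries scaled by TMM (factors 0.938 to 1.035); CPM are relative to that scaled library, except summed markers, which are relative to all counts. The two-sided quasi-likelihood test had treatment as its only term, on 3 against 3 pools from different mice, which is the spread behind each p-value. Each SE is the fold change over the root of F. Floors cover counting error only. The fit was tested on simulated counts. The 35 members, the 4 other pathway lists and the marker lists were chosen with earlier results of these data known; 1 listed marker was not matched. The split of the neutrophil markers was added after seeing the data. Every member is described: pool by pool for the highest member of each step, the 10 smallest unadjusted p and members without overlap, otherwise by range; of other lists, up to 3 genes by unadjusted p. Alternatives were DESeq2 1.42.0, limma 3.58.1 (voom, with and without quality weights), RLE and upper-quartile scaling, other filters, robust fitting, a looser threshold, and pools left out.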

Additional observations from a re-analysis of the deposited data

How the results depend on the processing

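No member was called in any of the 15 alternative fits, nor at an adjusted p under 0.1. Over all genes 0 were called, except 14 without a low-count filter and 1 by limma-voom with quality weights, none of them a member. Of the 35 members, 13 kept the sign of their fold change in every fit and 22 changed it in at least 1, none of these with a main log2 value beyond 0.22; of the 11 family shares, 2 kept their sign (Aldoa and Pdk3). At least 1 CPM in 3 pools removed Eno1. The members without overlap between groups numbered 2 to 11 with 1 pool left out, where 11.1 to 20.8% of all tested genes separated. They were 11 (31.4%) without untreated pool 3 against 19.5% of genes, 7 (20.0%) without RUX pool 4 against 16.2%, and 15 (42.9%) without both against 32.4%; fewer pools make separation easier. The median log2 fold change was 0.00081 to 0.085 with 1 pool left out, the highest without untreated pool 3, and 0.10 without untreated pool 3 and RUX pool 4. No paired analysis was possible because the groups share no replicate numbers. The low counts of Eno1 come with the annotation overlap given above; Aldoc rests on 124 to 250 counts per pool, the fewest in the shallower untreated pools.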
